A study of Mus musculus with 2 samples.

Results

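The S100, annexin, copine and calmodulin genes encode cytosolic proteins that read calcium signals. The 43 genes described here were chosen by symbol, as every gene of the array whose name begins with S100A, S100B, S100G or S100Z, with Anxa, Cpne or Calm and a number, or with Calml. They are 15 S100, 12 annexin, 9 copine and 7 calmodulin genes, read by 48 probes, among 16682 genes in all. Per the labels, the RNA came from the glandular stomach of female mice aged 26 weeks, 1 labelled AGR2 null and 1 labelled AGR2 wild-type. Agr2 is related to the protein disulfide isomerases, and mucous cells need it in the endoplasmic reticulum to make mucin. Each RNA was read on 1 Illumina MouseRef-8 v2 array, on which a probe reads a transcript as a fluorescence signal in arbitrary units. With 1 array per label no difference had a replicate check and no test was possible, so all folds are descriptions of these 2 arrays. The sources used here do not give how the null allele was made or what other alleles the mice carried.

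S100 proteins are small EF-hand proteins that pair up and, on binding calcium, expose a surface for partner proteins. Annexins bind acidic membrane lipids in the presence of calcium, copines do the same through tandem C2 domains, and calmodulin is the general calcium sensor that switches kinases, phosphatases and pumps. Several members mark cell types: S100a8 and S100a9 form calprotectin, a main cytosolic protein of neutrophils, Calm4 and Calml3 belong to stratified squamous epithelium, and Anxa10 is typical of gastric epithelium.

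Several signals went against the labels. Agr2 itself, read by 1 probe whose position relative to the null mutation is unknown, read 3406 on the array labelled null and 972 on the array labelled wild-type. Both mice are labelled female, yet Xist read 1774 on the null-labelled array and 186 (below background) on the wild-type-labelled array. Y-linked Eif2s3y read 134 (below background) on the null-labelled array and 2096 on the wild-type-labelled array, and Kdm5d 119 (below background) on the null-labelled array and 303 on the wild-type-labelled array. Y-linked Ddx3y was above background on both, at 2138 on the null-labelled array and 5332 on the wild-type-labelled array. Arrays are therefore named by their labels throughout (labelled null, or null-labelled), and directions are those of the array labelled null. Whether the labels were exchanged was not tested, and if they were, every direction given here would be reversed. An exchange would still leave both mice labelled female. Sex-linked signals differed along with the genotype label, so the part of sex in any fold cannot be told apart from that of genotype. Mean probe signal was 925 on the null-labelled array and 811 on the wild-type-labelled array, and the brightness that 99% of the background probes stayed under was 227 on the null-labelled array and 200.4 on the wild-type-labelled array. Gkn1 and Tff2, genes of gastric mucous cells, were bright on both arrays. Gkn1 read 50524 on the null-labelled array and 44373 on the wild-type-labelled array. Tff2 read 46750 on the null-labelled array and 45896 on the wild-type-labelled array. These signals exceeded 40000, where the array nears its ceiling and differences are compressed. Other markers of these cells differed in both directions. On the null-labelled array Muc5ac was 16.8-fold lower and Gkn3 19.3-fold higher, with the null signal of Gkn3 also above 40000.

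Of the 43 genes, 30 were above background on at least 1 array, 26 of them on both, 2 on the array labelled null alone and 2 on the array labelled wild-type alone. A further 13 were below background on both. On the array labelled null, 10 of the 30 were at least 2-fold higher, which is 33.3% of them, against 12.9% of the 9257 genes detected on at least 1 array. Another 5 were at least 2-fold lower, or 16.7%, against 17.1% of all detected genes, so this count lay near that of the array as a whole. The shares of 12.9% and 17.1% are also those to set beside the smaller 2-fold counts below, and no count was tested. The median log2 difference of the 30 was 0.59, beside 0.00 over all detected genes, and 23 of the 30 were above 0. When genes below background on 1 array were set at their bound, meaning the dim value was raised to the lowest detected level, 9 were higher and 5 lower, against 10.6% and 13.6% of all detected genes. Over the 26 detected on both arrays 8 were higher and 3 lower, against 10.5% and 10.7% of the 7564 genes detected on both. Bounds are on the background-corrected, normalized scale. They can exceed the ratio of the printed signals, which still hold background, and are no lower limit under other settings. In bulk tissue, fewer cells of a type and less RNA per cell cannot be told apart.

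**Figure D1:**
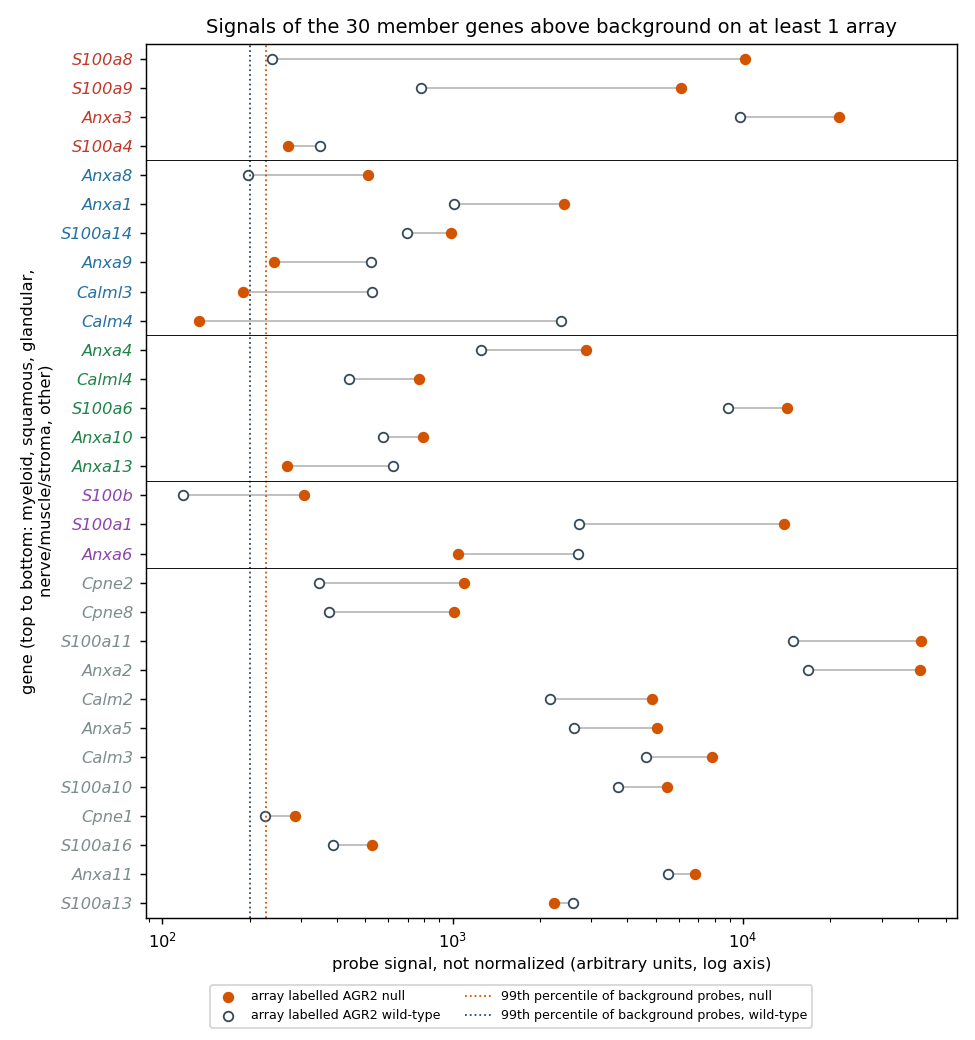
Probe signals (log axis, not normalized) of the 30 member genes above background on at least 1 array, grouped by class, with filled points for the array labelled AGR2 null, open points for the array labelled AGR2 wild-type and dotted lines at the signal that 99% of background probes stayed under. S100a8 is at 10127 on the null-labelled array and 239.8 on the wild-type-labelled array, and Calm4 at 133.5 on the null-labelled array, left of both lines, and 2359 on the wild-type-labelled array.

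Among the members tied to myeloid cells, S100a8 and S100a9 were far higher on the array labelled null. The S100a8 signal was 10127 on the array labelled null and 239.8 on the array labelled wild-type, a normalized value 67.4-fold higher (log2 difference 6.08). This was the 10th highest difference among all 9257 detected genes, but the wild-type signal lay little above the background level of 200.4. The size of that fold therefore rests on the background correction, and without the correction the log2 difference was 5.22. Its partner S100a9 read 6103 on the array labelled null and 779 on the array labelled wild-type, 7.39-fold higher, with both signals well above background. Both subunits of the complex were thus higher on the array labelled null, by different amounts.

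Anxa3, an annexin of neutrophil granules that epithelia also express, lay at the 2-fold line. Its brighter probe read 21375 on the array labelled null and 9803 on the array labelled wild-type, 1.99-fold higher, and its other probe read 18107 on the null-labelled array and 6778 on the wild-type-labelled array, 2.35-fold higher. S100a4, found in motile fibroblasts and myeloid cells, read 272 on the array labelled null and 349 on the array labelled wild-type, 1.97-fold lower, with both signals close to background. The 4 myeloid members thus ran from 1.97-fold lower to 67.4-fold higher.

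Most detected neutrophil genes outside the 4 families were also higher on the array labelled null. Of 12 such markers 8 were detected, 7 reached 2-fold upward on the array labelled null (6 with undetected signals at their bound) and none was lower past 2-fold. Their summed signal was 19853 on the array labelled null and 3607 on the array labelled wild-type. Most of both sums came from Ltf, at 12415 on the null-labelled array and 1904 on the wild-type-labelled array. On the wild-type-labelled array 10 of the 12 were below background, so the rest of that sum is largely background. Lcn2, an iron-scavenging granule protein, read 2357 on the null-labelled array and 157.3 (below background) on the wild-type-labelled array, 21.1-fold higher at the bound, and Retnlg, a resistin-like neutrophil peptide, read 1692 on the null-labelled array and 102.5 (below background) on the wild-type-labelled array, 14.8-fold higher at the bound. Ngp, detected on both arrays, went the other way. It read 242 on the null-labelled array and 222 on the wild-type-labelled array, 1.12-fold lower, with both signals close to background. Camp, Cxcr2, Fcnb and Mmp8 were below background on both arrays. Of 9 macrophage markers 8 were detected, 1 was above 0 and past 2-fold, and 7 were below 0, 3 of them past 2-fold, with summed signals of 15386 on the null-labelled array and 18609 on the wild-type-labelled array. The part of neutrophil numbers in the S100a8 and S100a9 values was not tested, and keratinocytes and other stressed epithelia can also make both proteins.

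The promoters of the S100a8 and S100a9 pair are shown because these members had the highest differences. They are the 120 bases before the annotated start in RefSeq (GRCm38.p6), with the letters TATAAA in capitals.
S100a8 (chr3:90668951-90669070, plus strand): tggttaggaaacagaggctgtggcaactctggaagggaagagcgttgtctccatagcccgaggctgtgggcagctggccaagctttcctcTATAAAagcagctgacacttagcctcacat
S100a9 (chr3:90695722-90695841, minus strand): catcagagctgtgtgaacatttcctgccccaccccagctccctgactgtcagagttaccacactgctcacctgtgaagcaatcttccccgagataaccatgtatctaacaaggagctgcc
The S100a8 stretch holds TATAAA with its first base 30 bases before the start, and the S100a9 stretch holds neither TATAAA nor TGANTCA. On either strand and within 250 bases before the start, TATAAA occurs in 12.97% of 27025 mouse promoters searched and in 5 of the 32 member promoters. The first promoter listed for each gene was searched, and 32 of the 43 members had one. The GC box letters GGGCGG, searched the same way, occur in 32.94% of these promoters and in 11 of the 32, S100a9, Anxa2 and S100a11 among them. A match is a run of letters and not evidence of factor binding.

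Members listed under squamous epithelium differed in opposite directions. Of 8 listed, 6 were detected, 3 were at least 2-fold lower and 2 higher on the array labelled null. Over all detected genes 17.1% were lower and 12.9% higher. The median log2 difference of the squamous members was -0.94, and 0.23 over the 3 detected on both arrays. Under the other alternatives it lay between -1.68, at a detection threshold of 0.05, and -0.50, in the authors' processed values. Calm4, a calmodulin-like protein of the differentiating epidermis, read 133.5 (below background) on the array labelled null and 2359 on the array labelled wild-type, 25.7-fold lower at the bound (log2 difference -4.69, and -4.33 without background correction). Calml3, a calmodulin-like protein of squamous epithelium, read 190.6 (below background) on the null-labelled array and 530 on the wild-type-labelled array, 4.96-fold lower at the bound (log2 difference -2.31, and -1.71 without background correction). Anxa9, an annexin of stratified epithelium, read 243 on the null-labelled array and 525 on the wild-type-labelled array, 4.29-fold lower, with the null signal close to the background level of 227.

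Of the other squamous members 2 were higher past 2-fold, 1 was within 2-fold and 2 were below background on both arrays. Anxa8, an annexin of stratified epithelia, read 513 on the null-labelled array and 197.9 (below background) on the wild-type-labelled array, 3.61-fold higher at the bound (log2 difference 1.85, and 1.14 without background correction). Its other probe read 453 on the null-labelled array and 206 on the wild-type-labelled array and was 2.86-fold higher, so both probes gave the same direction. Anxa1, which dampens inflammation through formyl peptide receptors, read 2426 on the array labelled null and 1013 on the array labelled wild-type, 2.11-fold higher. S100a14, a protein of epithelial cell layers, read 985 on the null-labelled array and 698 on the wild-type-labelled array, 1.17-fold higher. S100a3, of hair cuticle, and S100a7a, the mouse relative of psoriasin, were below background on both arrays, although S100a7a missed the threshold narrowly on the array labelled wild-type and counted as lower at the threshold of 0.05 (118 on the null-labelled array and 200.1 on the wild-type-labelled array).

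Squamous keratinization genes were far lower on the same array. Of 17 markers, 16 were on the array and 14 detected, 13 were at least 2-fold lower and 1 higher, and the summed signal was 6720 on the array labelled null and 173346 on the array labelled wild-type. Krtdap, a secreted product of differentiating keratinocytes, read 232 on the null-labelled array and 23897 on the wild-type-labelled array, 256-fold lower. Its null signal lay close to the background level of 227, so the size of that fold rests on the background correction. The basal keratin Krt14 read 164 (below background) on the null-labelled array and 14714 on the wild-type-labelled array, 163-fold lower at the bound. Calm4, Calml3 and Anxa9 thus shared the direction of these markers, while Anxa8 and Anxa1 did not. On the null-labelled array 10 of the 16 markers were below background, while Anxa1 read 2426 and S100a14 985 there. The squamous class is a listing, and the cell source of each member's signal was not tested. The part of the amount of squamous forestomach in each sample was not tested.

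The Calm4 promoter is shown as that of the member with the lowest difference on the array labelled null, again as 120 bases before the RefSeq start in GRCm38.p6. It holds neither TATAAA nor TGANTCA.
Calm4 (chr13:3837637-3837756, plus strand): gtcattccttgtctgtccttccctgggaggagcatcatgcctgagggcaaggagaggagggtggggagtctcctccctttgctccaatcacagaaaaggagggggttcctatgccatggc

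Most members of glandular epithelium were within 2-fold. Of 6 listed, 5 were detected, 4 were within 2-fold and 1 was lower on the array labelled null, against 17.1% lower over all detected genes. The median log2 difference of the glandular members was 0.54. Anxa10, the annexin of gastric epithelium, read 789 on the array labelled null and 578 on the array labelled wild-type, a 1.14-fold difference. Anxa4, abundant in ducts and glands, read 2870 on the null-labelled array and 1254 on the wild-type-labelled array, a fold that rounds to 2 but fell just short of the 2-fold line. S100a6, called calcyclin, read 14173 on the null-labelled array and 8913 on the wild-type-labelled array, 1.45-fold higher, and Calml4, a calmodulin-like protein of the brush border, read 766 on the null-labelled array and 440 on the wild-type-labelled array, 1.56-fold higher.

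Anxa13, an annexin of intestinal epithelium, read 269 on the array labelled null and 622 on the array labelled wild-type, 4.34-fold lower, with the null signal little above background. S100g, the vitamin D-dependent calbindin of the intestine, was below background on both. Surface mucous and neck markers, for comparison, had 2 higher, 1 lower and 3 within 2-fold, with summed signals of 200351 on the null-labelled array and 177600 on the wild-type-labelled array. Most of both sums came from signals above 40000, where differences are compressed. Parietal cell markers had 5 of 5 detected genes lower, with summed signals of 5042 on the null-labelled array and 152871 on the wild-type-labelled array. Their directions differed from those of most glandular members, and no count over so few genes was tested.

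**Figure D2:**
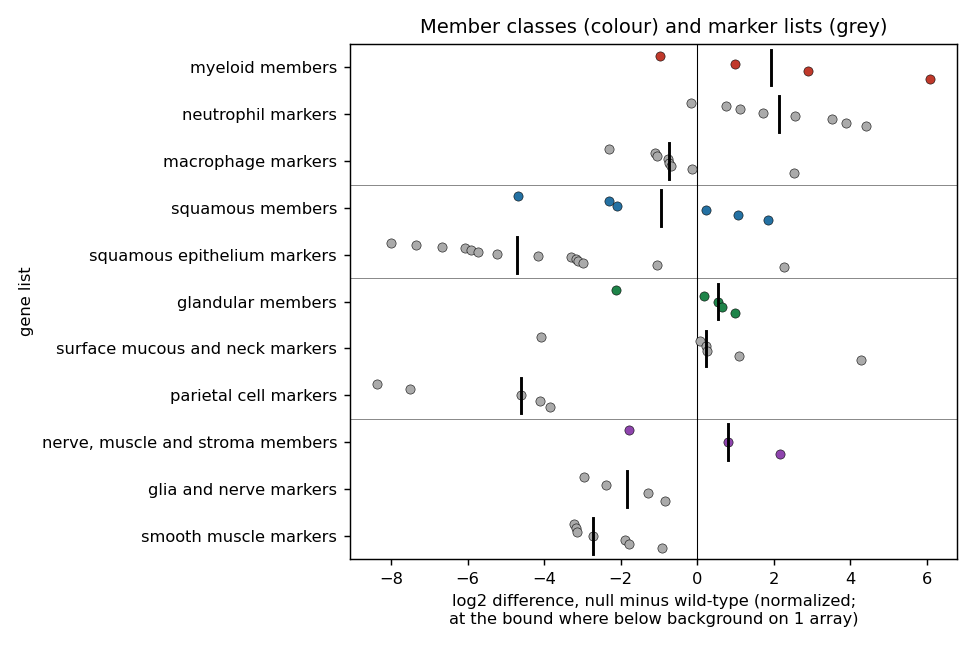
Log2 difference (array labelled AGR2 null minus array labelled AGR2 wild-type, normalized, at the bound for genes below background on 1 array) of detected genes in the member classes (coloured) and in marker lists of cell types (grey), with a black bar at the median. Squamous members lie on both sides of 0 while 13 of 14 squamous markers lie below it.

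Members of nerve, muscle and stroma differed in both directions. S100a1, a regulator of calcium handling in heart muscle, read 13796 on the array labelled null and 2727 on the array labelled wild-type, 4.44-fold higher, with both signals far above background. S100b, made by glia, read 309 on the null-labelled array and 117.9 (below background) on the wild-type-labelled array, 1.74-fold higher at the bound and so short of 2-fold there. Anxa6, an annexin of muscle and stroma built from a duplicated core, read 1043 on the null-labelled array and 2702 on the wild-type-labelled array, 3.46-fold lower. Cpne4, Cpne5, Cpne6 and Cpne7, copines mostly of nervous tissue, were below background on both arrays.

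Smooth muscle and nerve markers were lower on the same array, so of the 3 detected members only Anxa6 shared their direction. All 7 smooth muscle markers were lower past 2-fold (6 with undetected signals at their bound), with summed signals of 27761 on the array labelled null and 106043 on the array labelled wild-type. All 4 detected glia and nerve markers were lower (3 past 2-fold at their bound), with summed signals of 1024 on the null-labelled array and 2487 on the wild-type-labelled array. S100b, in contrast, was higher on the array labelled null. The part of muscle and nerve content in these values was not tested.

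Among broadly expressed S100 proteins and annexins, Anxa2 and S100a11 were higher on the array labelled null. Anxa2 joins membranes to the actin cortex in a complex with S100a10. Its signal was 40840 on the array labelled null and 16717 on the array labelled wild-type, 2.35-fold higher. S100a10 itself read 5471 on the null-labelled array and 3715 on the wild-type-labelled array, 1.25-fold higher, so these partners did not differ to the same extent. S100a11, which binds Anxa1, read 40864 on the null-labelled array and 14857 on the wild-type-labelled array, 2.65-fold higher. The null signals of Anxa2 and S100a11 exceeded 40000, where the array nears its ceiling and differences are compressed. RefSeq also lists S100a11-ps, a pseudogene, and the probe sequence that would tell the copies apart was not used here.

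Other broad S100 proteins and annexins were within 2-fold. Anxa5, which binds phosphatidylserine on dying cells, read 5053 on the array labelled null and 2613 on the array labelled wild-type, 1.64-fold higher. S100a13, which takes part in growth factor release outside the classical pathway, read 2235 on the null-labelled array and 2602 on the wild-type-labelled array, 1.44-fold lower, and S100a16 read 529 on the null-labelled array and 386 on the wild-type-labelled array, 1.17-fold higher. Anxa11, found at secretory granules and RNA granules, had a bright probe at 6819 on the null-labelled array and 5520 on the wild-type-labelled array (1.08-fold higher) and a dim one at 336 on the null-labelled array and 212 on the wild-type-labelled array (1.76-fold higher). Anxa7 and S100a5 were below background on both arrays.

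Promoters of Anxa2 and S100a11 are shown because both signals exceeded 40000 on the array labelled null. The stretches again run 120 bases before the RefSeq start, with TGANTCA, the core read by AP-1 factors, and TATAAA in capitals.
Anxa2 (chr9:69453563-69453682, plus strand): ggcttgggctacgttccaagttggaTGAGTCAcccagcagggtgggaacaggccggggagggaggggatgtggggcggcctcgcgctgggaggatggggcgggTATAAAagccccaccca
S100a11 (chr3:93520376-93520495, plus strand): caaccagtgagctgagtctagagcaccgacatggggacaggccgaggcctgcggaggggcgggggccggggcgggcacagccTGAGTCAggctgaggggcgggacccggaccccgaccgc
TGANTCA begins 95 bases before the Anxa2 start and 38 bases before the S100a11 start, and TATAAA begins 17 bases before the Anxa2 start. Within 250 bases before the start, TGANTCA on either strand occurs in 6.87% of 27025 promoters and in 3 of 32 member promoters, those of Anxa2, S100a11 and Anxa10. Anxa10 differed by 1.14-fold, so the members that hold these letters did not all differ alike.

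Calm2 and Calm3, genes of calmodulin itself, stayed within 2-fold. They encode one identical protein from separate genes. Calm2 read 4878 on the array labelled null and 2168 on the array labelled wild-type, 1.93-fold higher, and Calm3 read 7800 on the null-labelled array and 4650 on the wild-type-labelled array, 1.45-fold higher. The probe for Calm5, a relative of Calm4, was below background on both arrays. None of the 7 genes of the family was 2-fold higher, and the 2 that were lower are the squamous Calm4 and Calml3.

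Of the 9 copines 3 were detected. Cpne2 read 1094 on the array labelled null and 347 on the array labelled wild-type, 3.31-fold higher. Cpne8 was read by 3 probes, all higher on the array labelled null: the brightest read 1009 on the null-labelled array and 374 on the wild-type-labelled array (2.68-fold), another 532 on the null-labelled array and 338 on the wild-type-labelled array (1.44-fold), and the dimmest 300.05 on the null-labelled array and 182 on the wild-type-labelled array (2.11-fold, with only the null signal above background). The probes agree in direction and disagree on whether 2-fold is reached. Cpne1 read 287 on the null-labelled array and 226 on the wild-type-labelled array, 1.18-fold higher and close to background. Cpne3 and Cpne9 were below background on both arrays.

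**Figure D3:**
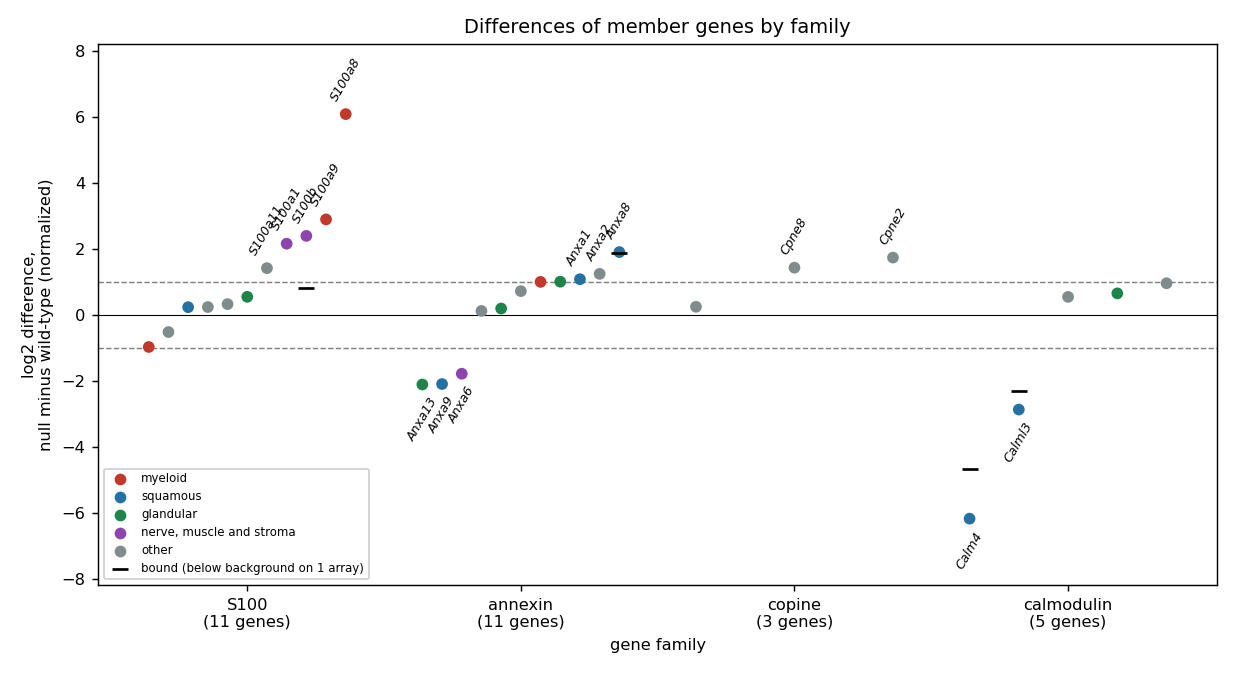
Log2 difference (array labelled AGR2 null minus array labelled AGR2 wild-type, normalized) of the 30 detected members by family, coloured by class, with dashed lines at 2-fold and black dashes at the bound for genes below background on 1 array. S100 members reach 6.08 at the top and calmodulin members reach -6.18 at the bottom, where the bound of Calm4 is -4.69.

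Most S100 genes lie in a cluster on chromosome 3, which also holds squamous epithelium genes. Of the 13 S100 members on that chromosome, 10 were detected, 4 were at least 2-fold higher on the array labelled null and none was 2-fold lower, although S100a4 and S100a13 were below 0. Over all detected genes 12.9% were higher and 17.1% lower, and a count over so few genes was not tested. In their order along the chromosome, S100a8 and S100a9 are the members after S100a7a. S100a7a was below background on both arrays, so it has no level to set beside theirs. S100a1, at the other end of the cluster, stands next to S100a13, which was 1.44-fold lower. Rptn and Hrnr, fused S100-type proteins of the keratinized layer, read 293 on the null-labelled array and 9438 on the wild-type-labelled array (63.1-fold lower) for Rptn, and 134 (below background) on the null-labelled array and 1249 on the wild-type-labelled array (13.1-fold lower at the bound) for Hrnr.

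**Figure D4:**
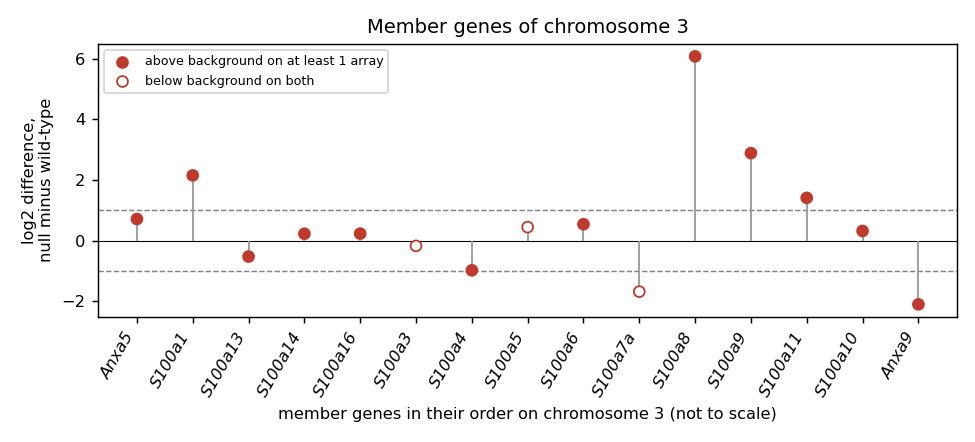
Log2 difference (array labelled AGR2 null minus array labelled AGR2 wild-type, normalized) of the 15 members on chromosome 3 in gene order, with open points for genes below background on both arrays and dashed lines at 2-fold. S100a8 at 6.08 and S100a9 at 2.88 stand beside S100a7a, an open point.

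Receptors and binding partners of the members were mostly within 2-fold or below background. Of 14 such genes on the array 6 were detected, and 2 were at least 2-fold higher on the array labelled null and none was 2-fold lower, with 2 of the other 4 below 0. Tlr4, a receptor for calprotectin, read 791 on the array labelled null and 288 on the array labelled wild-type, 3.06-fold higher. Fpr2, a receptor for Anxa1, read 399 on the null-labelled array and 145.4 (below background) on the wild-type-labelled array, 2.56-fold higher at the bound. Ager, the other classic receptor of S100 proteins, was below background on both arrays.

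Targets and regulators of calmodulin included the smooth muscle kinase Mylk. Of 17 detected, 5 were lower past 2-fold on the array labelled null (4 with undetected signals at their bound), 1 was higher and 11 were within 2-fold. Their median log2 difference was -0.62. Mylk, which phosphorylates myosin light chain, read 1277 on the array labelled null and 10523 on the array labelled wild-type, 10.6-fold lower, the direction of the smooth muscle markers. Camk2b, a calmodulin-dependent kinase subunit, read 198.7 (below background) on the null-labelled array and 845 on the wild-type-labelled array, 8.59-fold lower at the bound. The phosphodiesterase Pde1a read 282 on the null-labelled array and 526 on the wild-type-labelled array, 3.27-fold lower. The Pde1a null signal lay close to the background level of 227, so the size of that fold rests on the background correction. Atp2b1, a plasma membrane calcium pump, read 413 on the null-labelled array and 202 on the wild-type-labelled array and was 2.66-fold higher. Its wild-type signal lay barely above the background level of 200.4.

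Among other EF-hand proteins 21 were detected. On the array labelled null 4 passed 2-fold upward and 5 downward, and the median log2 difference was 0.16. With undetected signals at their bound, 3 were higher and 3 lower. Capn2, a calpain protease, read 1362 on the array labelled null and 284 on the array labelled wild-type, 5.87-fold higher. Chp2, a calcineurin B-like partner of sodium-proton exchangers, read 160.1 (below background) on the null-labelled array and 463 on the wild-type-labelled array, 4.14-fold lower at the bound. Its relative Chp1 read 278 on the null-labelled array and 138 (below background) on the wild-type-labelled array, 1.45-fold higher at the bound and so short of 2-fold.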

How the data were processed

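Total RNA of glandular stomach was labelled with biotin and hybridized to Illumina MouseRef-8 v2 arrays, per the labels. The authors deposited intensity values, linear signals of 25697 probes on each array, in 1 file described as not normalized and in a processed table. In the processed table each array's signals are multiplied by 1 factor (0.842 for the array labelled null and 0.960 for the array labelled wild-type), as found from the values. How bead values were combined is not stated in the sources used here.

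The table gives 1 signal per probe with no detection p-value and no control probe, so the 1314 probes of olfactory and vomeronasal receptors, chosen after the data were seen, stood in as background probes. Background was removed with the normal-exponential (normexp) fit of limma 3.58.1 (R 4.3.3, offset 16), and values were quantile normalized and put on the log2 scale. A probe was detected when under 0.01 of background probes were as bright. Each gene was taken from its brightest probe, and all probes of the members named are reported, apart from items that are not reported here. A fold against an undetected signal is a bound, on the normalized scale, from the lowest detected level of that array. Symbols were updated through GRCm38.p6 RefSeq names, all 43 member symbols being current, and probes under an old and a current symbol of 1 gene were merged. Keeping such old symbols apart was also tried, and the choice to merge was settled after the outputs of both had been seen.

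The members, classes and lists were chosen with earlier results of these data known. Every member could be named. Of the lists, up to 5 genes past 2-fold or the 2 brightest may be named, and Agr2 and sex-linked genes check the labels. Outside this rule, Gkn1, Tff2, Ager, Ngp, Camp, Cxcr2, Fcnb and Mmp8 were named after their values were seen. Background correction and normalization were tested on simulated arrays, for the mean log2 difference of genes of middling signal. Detection calls, bounds, dim genes, genes near the ceiling and the choice of background probes were not tested in this way. Precision is limited by having 2 arrays, and 11 alternative settings were tried, 10 planned and 1 added.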

Additional observations from a re-analysis of the deposited data

How the results depend on the processing

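Of the 15 members past 2-fold, none changed direction under the 11 alternatives, although only 11 of them are detected on both arrays and so have a value under that filter. All 15 stayed past 2-fold with an offset of 50, with equal medians, in the authors' processed values, without the detection filter, at a detection threshold of 0.05, with the mean over probes and with old symbols kept apart. The exceptions were Anxa1 without background correction (0.99) and under cyclic loess (0.99), and S100b at its bound (0.80). The count of higher members ran from 8 to 12. The count of lower members was 3 over genes detected on both arrays, since Calm4 and Calml3 were below background on the array labelled null, and 5 or 6 elsewhere.

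The median log2 difference of 0.59 became 0.53 without background correction, 0.57 with the larger offset, 0.69 with equal medians, 0.51 under cyclic loess, 0.58 in the authors' processed values, 0.54 at the threshold of 0.05 and 0.24 without the detection filter, which adds genes below background. Keeping old symbols apart, a setting chosen after seeing the data, left every member value as it was and gave 16880 genes in place of 16682, with 13.1% of 9339 detected genes at least 2-fold higher and 17.1% lower, against 12.9% and 17.1% when merged. Equal medians moved the median of all detected genes by 0.11. Folds of dim genes depend on the background correction, and the log2 difference of Calm4 was -6.18 as fitted and -4.33 without it. No paired analysis was possible because each labelled genotype has 1 array. No replicate could be left out for the same reason.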
